A study of Mus musculus with 6 samples.

Results

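The genes described here are 8 genes of cholesterol synthesis, Hmgcs1, Idi1, Fdps, Fdft1, Sqle, Lss, Cyp51 and Insig1, out of the 30803 rows measured per library. They were found by gene symbol, and each symbol had a single row. Hematopoietic stem cells (HSCs, by their label) of bone marrow were compared as MHCII-hi and MHCII-lo fractions, with 3 RNA-seq libraries each. Both came from wild-type (WT) mice at 5 months of age whose libraries are titled Ctrl, with no treatment stated, and the fractions differ by the level of MHC class II, the surface molecules that present peptides to helper T cells. Values are levels in FPKM (fragments scaled by transcript length and library size); the values themselves were the ground for naming this unit. Means are given ± SD over 3 libraries.

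Cholesterol is built from acetyl-CoA along the mevalonate pathway. Hmgcs1 makes HMG-CoA early in this route, Idi1 and Fdps build the isoprenoid farnesyl pyrophosphate, and Fdft1 joins it into squalene, which commits carbon to sterols. Sqle and Lss turn squalene into lanosterol, and Cyp51 demethylates lanosterol. When sterols are scarce, the transcription factor SREBP-2 is released from the endoplasmic reticulum and raises transcription of these enzymes. Insig1, itself such a target, holds the SREBP escort protein SCAP in the endoplasmic reticulum when sterols are plentiful. In blood-forming cells the pathway supplies membrane for dividing cells and the lipid anchors of small GTPases.

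Some defining markers of stem cells were near 0. Slamf1 (CD150), Procr and Mecom stayed under 1 FPKM in all 6 libraries, while Kit had 10.85 ± 0.208 FPKM in MHCII-hi and 10.89 ± 0.0306 FPKM in MHCII-lo, a difference whose sign depends on the scaling. Of 10 stem cell gate genes 7 were tested, 4 rose, 1 fell and 2 did not pass; Ly6a (Sca-1) rose 3.05-fold and Flt3 1.51-fold, Cd48 fell to 0.771 times the MHCII-lo mean, and Cd34 did not pass at 0.08 on the log2 scale (limma adjusted p = 0.0631). Cd34 did pass, at 0.13 to 0.27, in 4 alternative settings that rescale the libraries or take out the trend on length and GC content. The 10 listed B cell genes summed to between 8019 and 8161 FPKM in MHCII-hi and between 394 and 454 FPKM in MHCII-lo, and all 10 rose. The 10 neutrophil and monocyte genes summed to between 21145 and 21422 FPKM in MHCII-hi and between 16241 and 16304 FPKM in MHCII-lo, and 5 of them rose while 4 fell. Among all tested genes, 27.2% rose and 40.5% fell, so these counts are to be read against large shares. The sum of all values was between 333347 and 333530 FPKM in MHCII-hi and between 305934 and 306945 FPKM in MHCII-lo, of which mitochondrial genes made up 12.5% in MHCII-hi and from 8.81% to 8.96% in MHCII-lo. The read depth is unknown. In such bulk samples, fewer cells of a type and less RNA per cell cannot be told apart. Neither the sort gate nor separate animals for the 3 libraries of a fraction are stated in the sources used here, so the spread behind the p-values is that of these libraries and may be technical.

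Transcripts of the pathway were lower in MHCII-hi at some steps and not at others. Of the 8 genes, all passed the minimum mean of 1 FPKM, 5 fell, none rose and 3 did not pass the test (limma on log2(FPKM + 1), Benjamini-Hochberg adjusted p under 0.05). Over all 12295 tested genes 40.5% fell and 27.2% rose in the same fit, 67.8% together, so 5 of 8 is to be read against a large share. With median-of-ratios scaling, 4090 genes rose and 4001 fell, beside 3348 and 4982 as reported. There 4 of the 8 genes fell, beside 32.5% of all tested genes. With libraries rescaled without immunoglobulin and mitochondrial genes, 4 of the 8 fell as well, beside 35.2%. With the trend of each library on transcript length and GC content taken out, 2 of the 8 fell, Fdps and Sqle, beside 32.4%. In 5 of the 8 genes every MHCII-hi library was below every MHCII-lo library, an order that 43.3% of all tested genes showed, and in none was every one above, which 29.6% showed. The median difference was -0.16 on the log2(FPKM + 1) scale for the 8 genes and -0.08 for all tested genes. Summed over the 8 genes, the level was 66.2, 66.0 and 65.2 FPKM in the MHCII-hi libraries and 77.1, 78.4 and 80.2 FPKM in the MHCII-lo libraries. The sums of the fractions did not overlap, and the MHCII-hi mean was 0.837 times the MHCII-lo mean. A large part of this is Fdps, which averaged 9.85 FPKM in MHCII-hi and 16.29 FPKM in MHCII-lo, within mean sums of 65.79 and 78.58 FPKM. The sums are of values as deposited, without rescaling. In the histogram of all tested genes, Fdps lay farthest to the left of the 8.

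**Figure D1:**
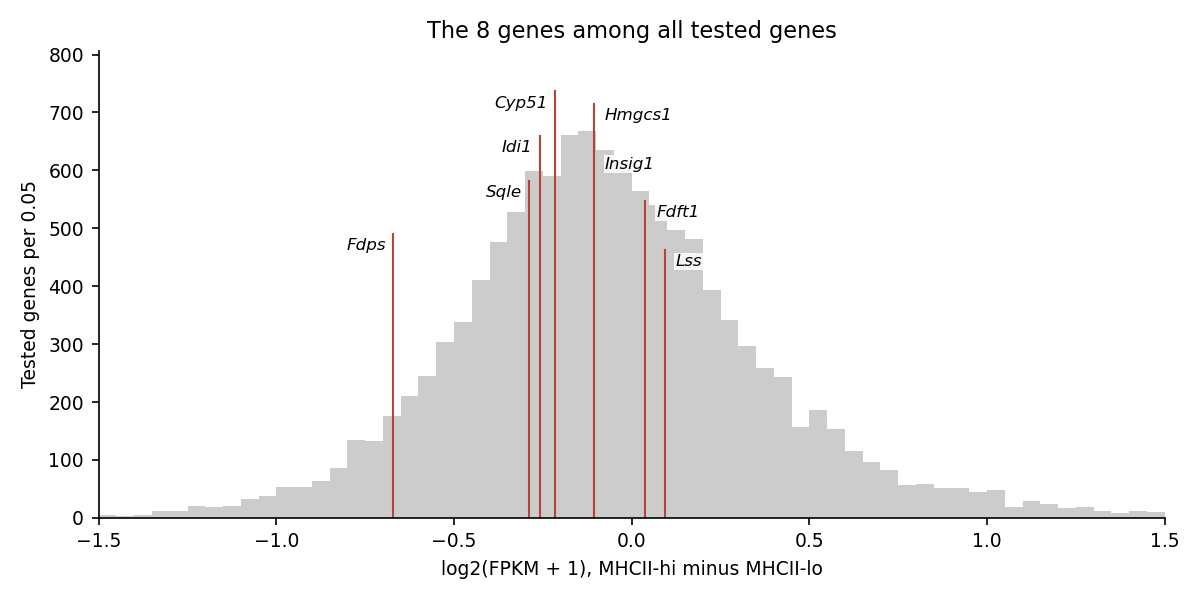
Distribution of the difference in log2(FPKM + 1), MHCII-hi minus MHCII-lo, over all tested genes in steps of 0.05 (gray bars, number of genes), with the 8 genes as red lines (line heights only separate the labels; Hmgcs1 and Insig1 share nearly the same position). The axis ends at 1.5 in both directions, which leaves out 18 genes below and 269 above; Fdps lies at -0.67 and the other 7 genes lie between -0.29 and 0.09.

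Promoter windows of 300 bases, from 250 before to 50 after the start, were given by RefSeq (GRCm38.p6) for 5 of the 8 genes. They are shown for Hmgcs1, and for Idi1 and Cyp51, whose transcripts fell. Of the 5 windows, only that of Hmgcs1 held the letters searched as the core of the sterol regulatory element, which SREBP binds. Other forms of this element were not searched, so other windows may hold one. Capitals mark that core, TCACNCCAC, and the CCAAT box, the letters bound by NF-Y, a common partner of SREBP; both were searched on both strands, so that CCAAT on the other strand reads ATTGG.
Hmgcs1 (chr13:119690101-119690400, plus strand): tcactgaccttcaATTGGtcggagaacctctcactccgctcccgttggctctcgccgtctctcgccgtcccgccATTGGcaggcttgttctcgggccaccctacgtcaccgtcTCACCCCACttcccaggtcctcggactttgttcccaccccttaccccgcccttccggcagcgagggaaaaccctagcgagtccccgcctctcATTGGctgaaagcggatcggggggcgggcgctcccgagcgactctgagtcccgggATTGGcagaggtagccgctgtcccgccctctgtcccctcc
Idi1 (chr13:8885356-8885655, plus strand): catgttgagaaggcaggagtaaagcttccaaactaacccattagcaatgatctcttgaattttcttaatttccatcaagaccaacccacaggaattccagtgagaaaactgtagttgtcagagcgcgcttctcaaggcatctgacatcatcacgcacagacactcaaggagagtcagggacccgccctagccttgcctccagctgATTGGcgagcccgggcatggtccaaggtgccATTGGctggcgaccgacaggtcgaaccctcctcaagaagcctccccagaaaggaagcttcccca
Cyp51 (chr5:4104648-4104947, minus strand): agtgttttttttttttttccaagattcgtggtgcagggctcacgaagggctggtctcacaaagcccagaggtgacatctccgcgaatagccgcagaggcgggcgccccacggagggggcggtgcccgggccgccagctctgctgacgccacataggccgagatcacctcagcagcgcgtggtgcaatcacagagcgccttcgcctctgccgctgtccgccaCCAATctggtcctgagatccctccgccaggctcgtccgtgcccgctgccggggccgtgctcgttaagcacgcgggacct
The core in Hmgcs1 reads TCACCCCAC and begins 137 bases upstream of the start. Among all 32851 promoter windows 1.24% hold it. The CCAAT box occurred 4 times in Hmgcs1, 2 times in Idi1 and 1 time each in Cyp51, Lss and Insig1, and 37.4% of all windows hold it. The GC box GGGCGG was in all 5 windows, against 35.7% of all windows. A match describes letters in these windows and says nothing of binding, and its absence says nothing of the factor.

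Hmgcs1, the HMG-CoA synthase of the cytosol (ENSMUSG00000093930.2; GRCm38 chromosome 13, 119690379 to 119708260, plus strand), had 8.20, 7.12 and 7.49 FPKM in MHCII-hi and 8.28, 8.55 and 7.95 FPKM in MHCII-lo. The fractions overlapped, since the highest MHCII-hi library stood above the lowest MHCII-lo library. The difference was -0.11 ± 0.05 (SE) on the log2 scale, with a 95% interval from -0.24 to 0.02, and did not pass (limma adjusted p = 0.124). Without MHCII-hi replicate 1, the highest of its fraction, it passed at -0.16 (limma adjusted p = 0.0287), and with the length and GC trend taken out it was 0.06.

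Idi1, the isomerase that makes dimethylallyl pyrophosphate (ENSMUSG00000058258.14; chromosome 13, 8885501 to 8892451, plus strand), had 8.96, 8.65 and 8.17 FPKM in MHCII-hi and 9.90, 10.17 and 11.41 FPKM in MHCII-lo. Every MHCII-hi library was below every MHCII-lo library. The level fell by 18.1%, with a log2 difference of -0.26 ± 0.06 (SE; limma adjusted p = 0.00714). A processed pseudogene, Gm13502, is identical to the Idi1 transcript over 684 bases and was listed at 4.72, 3.09 and 3.24 FPKM in MHCII-hi and 4.39, 3.75 and 4.02 FPKM in MHCII-lo. Reads of the pair cannot be told apart over that stretch, so how much of the Idi1 signal was assigned to the copy is uncertain. The summed level of both was 13.7, 11.7 and 11.4 FPKM in MHCII-hi and 14.3, 13.9 and 15.4 FPKM in MHCII-lo, again without overlap. The paralog Idi2 was listed at 0 in all 6 libraries.

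Fdps, farnesyl pyrophosphate synthase and the branch point to sterols, dolichol, ubiquinone and protein prenylation, showed the largest difference of the 8 genes (ENSMUSG00000059743.12; chromosome 3, 89093588 to 89101959, minus strand). Its level was 10.30, 9.32 and 9.93 FPKM in MHCII-hi and 15.76, 16.86 and 16.24 FPKM in MHCII-lo. The lowest MHCII-lo library was well above the highest MHCII-hi library. The level fell by 39.5%, with a log2 difference of -0.67 ± 0.04 (SE; limma adjusted p = 1.81e-05), and 6.51% of all tested genes had a lower difference. It stayed past the threshold in all 17 alternative settings, with differences from -0.73 to -0.58. Its longest annotated transcript has 2953 bases. The 2949 tested genes whose longest transcripts were from 20% shorter to 25% longer had a median difference of -0.10.

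Fdft1, squalene synthase, takes up the product of Fdps (ENSMUSG00000021273.10; chromosome 14, 63145150 to 63179578, minus strand). It had 5.69, 6.19 and 5.62 FPKM in MHCII-hi and 5.45, 5.61 and 5.89 FPKM in MHCII-lo, and the fractions overlapped. The difference was 0.04 ± 0.05 (SE) on the log2 scale and did not pass (limma adjusted p = 0.509). Its 95% interval, from -0.08 to 0.16, leaves out a change of the size seen for Fdps. The 3′ end of Fdft1 shares 774 bases with the cathepsin gene Ctsb on the opposite strand, which had 74.9, 72.3 and 76.5 FPKM in MHCII-hi and 94.0, 96.4 and 93.2 FPKM in MHCII-lo. The library kit keeps strand, but whether the authors' estimation used it is not stated, so the Fdft1 level is uncertain by any reads of Ctsb assigned to it.

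Within single libraries the balance between Fdps and Fdft1 differed, a pair chosen after their values were seen. The ratio of Fdps to Fdft1 was 1.81, 1.51 and 1.77 in MHCII-hi and 2.89, 3.01 and 2.76 in MHCII-lo. The ratios did not overlap, and an exact two-sided permutation test gave p = 0.1, the smallest that 3 against 3 libraries allow. Any ratio without overlap gives this value, and the pair was chosen with its values known, so the test adds no support. Such a ratio does not depend on the scaling of a library. Fdps made up between 14.1% and 15.6% of the summed level of the 8 genes in MHCII-hi and between 20.2% and 21.5% in MHCII-lo.

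Sqle, squalene epoxidase, which uses oxygen and is a rate-limiting step of the sterol branch, was also lower (ENSMUSG00000022351.14; chromosome 15, 59315077 to 59331192, plus strand). It had 3.77, 3.83 and 3.75 FPKM in MHCII-hi and 4.87, 5.05 and 4.63 FPKM in MHCII-lo. The MHCII-hi libraries were close to each other and all below the MHCII-lo libraries. The level fell by 22.0%, with a log2 difference of -0.29 ± 0.04 (SE; limma adjusted p = 0.00107). Sqle passed in the 16 alternatives that tested it, from -0.36 to -0.21; its mean is below the stricter minimum of 5 FPKM.

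Lss, lanosterol synthase, was the least abundant of the 8 genes and reached the minimum mean narrowly (ENSMUSG00000033105.12; chromosome 10, 76531588 to 76557138, plus strand). It had 1.05, 1.32 and 1.22 FPKM in MHCII-hi and 0.99, 1.10 and 1.08 FPKM in MHCII-lo. The fractions overlapped, and the difference of 0.09 ± 0.08 (SE) did not pass (limma adjusted p = 0.331; 95% interval from -0.10 to 0.28). This interval was the widest of the 8.

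Cyp51, lanosterol demethylase, had 7.12, 6.88 and 7.19 FPKM in MHCII-hi and 8.03, 8.30 and 8.79 FPKM in MHCII-lo (ENSMUSG00000001467.5; chromosome 5, 4081145 to 4104746, minus strand). No libraries of the fractions overlapped. The level fell by 15.6%, with a log2 difference of -0.22 ± 0.04 (SE; limma adjusted p = 0.00345). Cyp51 and Idi1 lost their calls with the length and GC trend taken out, at -0.09 (limma adjusted p = 0.113) and -0.08 (limma adjusted p = 0.295). Fdps and Sqle kept theirs there, at -0.58 (limma adjusted p = 3.98e-05) and -0.23 (limma adjusted p = 0.00327).

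Insig1 was the most abundant of the 8 genes (ENSMUSG00000045294.11; chromosome 5, 28071363 to 28078662, plus strand). It had 21.11, 22.69 and 21.80 FPKM in MHCII-hi and 23.81, 22.78 and 24.23 FPKM in MHCII-lo. The fractions did not overlap, but the highest MHCII-hi and the lowest MHCII-lo library nearly met. The level fell by 7.37%, with a log2 difference of -0.11 ± 0.04 (SE; limma adjusted p = 0.0395), close to the median of all tested genes. The call was kept in 5 of 17 alternatives, and the difference was 0.05 (limma adjusted p = 0.2495) with the length and GC trend taken out. Leaving out MHCII-hi replicate 1 or 3 or MHCII-lo replicate 1 or 3 also ended it, with differences from -0.10 to -0.08.

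**Figure D2:**
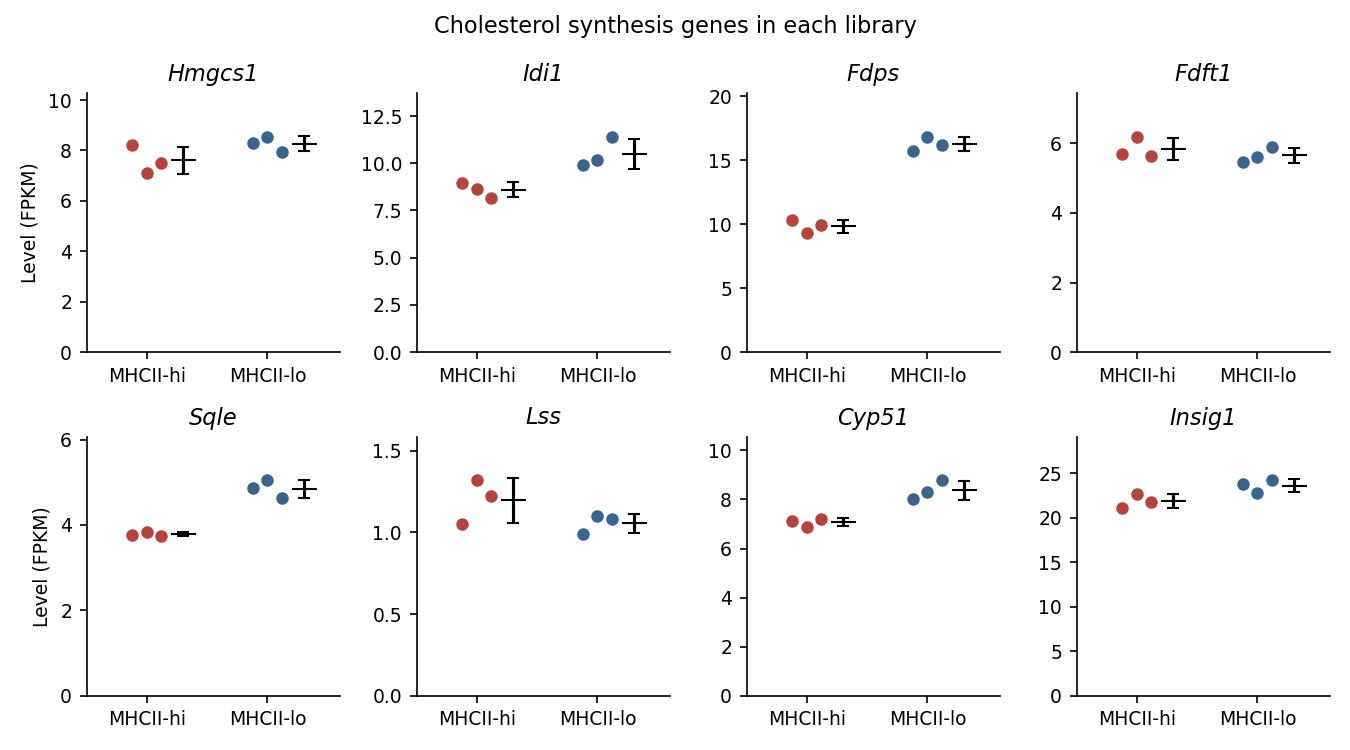
Level in FPKM of each of the 8 genes in the 3 MHCII-hi libraries (red) and the 3 MHCII-lo libraries (blue), with the mean and SD in black; each panel has its own axis from 0. Fdps, Idi1, Sqle, Cyp51 and Insig1 do not overlap between the fractions, and Hmgcs1, Fdft1 and Lss do.

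The order of the levels was nearly the same in both fractions. In MHCII-hi it ran Insig1, Fdps, Idi1, Hmgcs1, Cyp51, Fdft1, Sqle and Lss, from 21.9 to 1.197 FPKM on average, and the libraries of Idi1 overlapped those of Hmgcs1 and those of Hmgcs1 overlapped those of Cyp51. In MHCII-lo it ran Insig1, Fdps, Idi1, Cyp51, Hmgcs1, Fdft1, Sqle and Lss, from 23.6 to 1.06 FPKM, and only Cyp51 and Hmgcs1 overlapped among neighbours. Fdps averaged 9.85 ± 0.495 FPKM in MHCII-hi, next to Idi1 at 8.59 ± 0.398 FPKM, and 16.3 ± 0.552 FPKM in MHCII-lo, well above Idi1 at 10.5 ± 0.805 FPKM. By the smallest root mean square distance of centred log2 levels over the 6 libraries, the genes most like the average of the 8 were mt-Ts1, Rab27a, Pum2, Septin7 and Slc25a46, at distances of 0.0074 to 0.01.

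**Figure D3:**
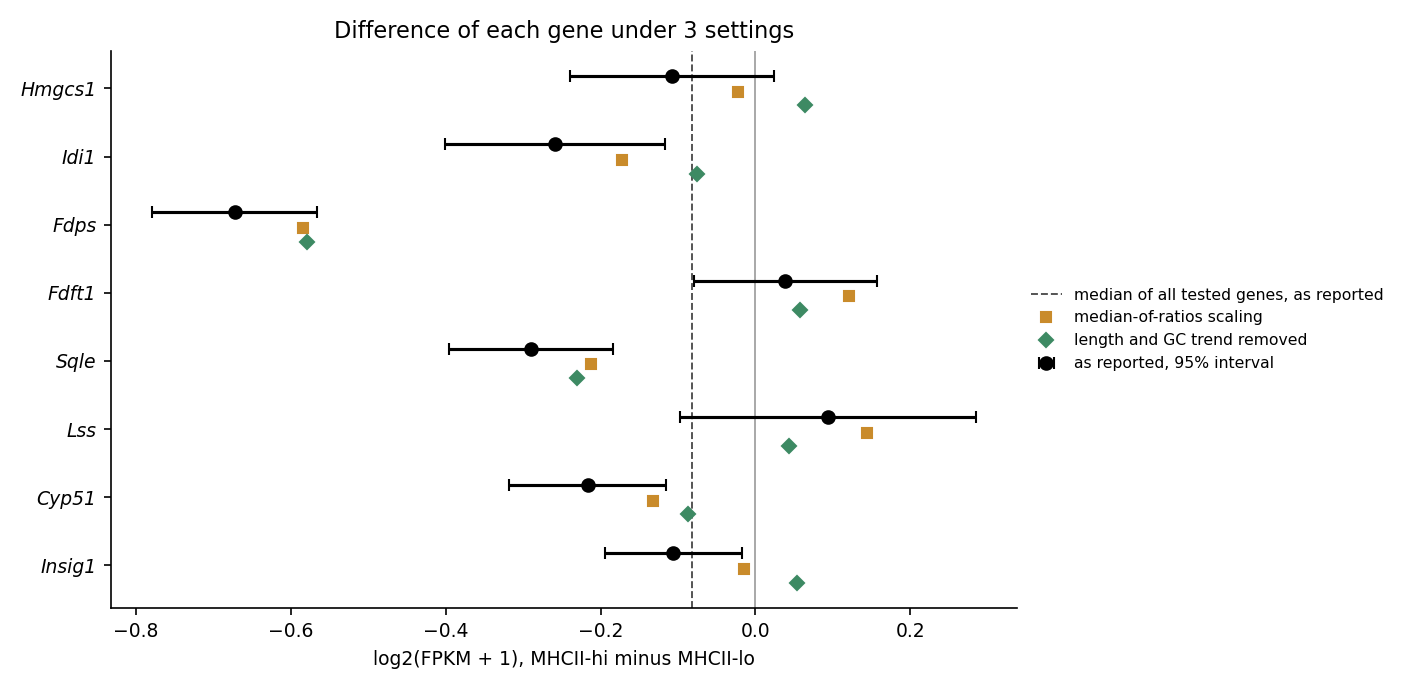
Difference in log2(FPKM + 1), MHCII-hi minus MHCII-lo, for each gene as reported (black, with 95% interval), after median-of-ratios scaling (orange squares) and after removal of the length and GC trend (green diamonds); the dashed line is the median of all tested genes as reported. Fdps lies between -0.67 and -0.58 and Sqle between -0.29 and -0.21 in the 3 settings, while Hmgcs1 and Insig1 lie on both sides of 0.

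Of 15 other enzymes of sterol synthesis, 14 were tested, 6 fell, 2 rose and 6 did not pass, with a median log2 difference of -0.03. The share that fell was near the 40.5% of all tested genes. Acat2, which condenses acetyl-CoA at the entry of the pathway, had 3.95, 5.45 and 4.08 FPKM in MHCII-hi and 8.26, 8.09 and 7.58 FPKM in MHCII-lo, 0.563 times the MHCII-lo mean. Its libraries did not overlap, and its log2 difference of -0.72 ± 0.10 (SE; limma adjusted p = 0.000798) was of the size of that of Fdps. Ebp, the sterol isomerase after lanosterol, fell to 13.0 ± 1.01 FPKM in MHCII-hi, against 18.4 ± 0.340 FPKM in MHCII-lo. Lbr, the lamin B receptor, which is also a sterol C14 reductase, fell to 65.9 ± 0.246 FPKM in MHCII-hi, against 90.5 ± 1.64 FPKM in MHCII-lo. The genes that rose were Hsd17b7, a ketoreductase of the late steps, at 1.43 times the MHCII-lo mean, and Pmvk, phosphomevalonate kinase, at 1.14 times. Dhcr7, a reductase of the late steps, did not pass, at 1.07 times the MHCII-lo mean.

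The genes that control SREBP moved in both directions. Of 12 listed and tested, 3 rose, 6 fell and 3 did not pass, with a median of -0.15. Srebf2, which encodes SREBP-2, had 23.30, 23.06 and 23.42 FPKM in MHCII-hi and 18.43, 17.97 and 18.68 FPKM in MHCII-lo. All MHCII-hi libraries were above all MHCII-lo libraries, and the log2 difference was 0.33 ± 0.03 (SE; limma adjusted p = 4.53e-05), or 0.12 with the length and GC trend taken out (limma adjusted p = 0.00686). Scap, the escort of SREBP, rose 1.22-fold (limma adjusted p = 0.000647), and Rnf145, a ubiquitin ligase that targets it, rose 1.31-fold (limma adjusted p = 0.000708). The transcript of SREBP-2 was higher in MHCII-hi while 5 of the 8 genes were lower, beside 40.5% of all tested genes. With the length and GC trend taken out 2 of the 8 were lower, beside 32.4%. A link between the transcript of SREBP-2 and the 8 genes was not tested. Insig2, the other Insig protein, had 1.95, 2.08 and 2.47 FPKM in MHCII-hi and 3.30, 3.18 and 3.38 FPKM in MHCII-lo, a fall to 0.659 times the MHCII-lo mean (limma adjusted p = 0.00155). Srebf1, which encodes the SREBP form of fatty acid synthesis, fell to 0.881 times the MHCII-lo mean (limma adjusted p = 0.003804), and missed the threshold with median-of-ratios scaling (limma adjusted p = 0.0712). Its log2 difference was -0.17 as reported and -0.36 with the length and GC trend taken out (limma adjusted p = 9.81e-05). Ube2g2, a ubiquitin-conjugating enzyme of the endoplasmic reticulum, fell to 0.787 times.

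In the list of SREBP-linked uptake and sterol transport, 10 of 12 genes were tested, 6 fell, 2 rose and 2 did not pass. The shares over all tested genes were 40.5% falling and 27.2% rising, and the difference of the list from them was not tested. Stard4, a sterol carrier and SREBP-2 target, fell to 5.00 ± 0.468 FPKM in MHCII-hi, against 8.01 ± 0.4996 FPKM in MHCII-lo (limma adjusted p = 0.000301). Tmem97, another such target, fell to 0.755 times the MHCII-lo mean, and Npc2, which hands cholesterol out of lysosomes, to 0.603 times. Mylip, the ubiquitin ligase that removes lipoprotein receptors from the surface and is induced by liver X receptors, rose 2.24-fold, with 14.48, 13.26 and 12.91 FPKM in MHCII-hi and 6.54, 5.84 and 5.79 FPKM in MHCII-lo (limma adjusted p = 9.11e-06). Lrp8, a lipoprotein receptor, rose to 3.18 FPKM in MHCII-hi, against 2.64 FPKM in MHCII-lo.

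The list of sterol efflux, storage and liver X receptors, the nuclear receptors that sense oxysterols, held 11 genes. Of these 8 were tested, 5 rose, 2 fell and 1 did not pass, with a median of 0.31, beside 27.2% rising and 40.5% falling over all tested genes; its difference from the other lists was not tested. The sterol exporter Abca1 had 1.74, 2.01 and 1.78 FPKM in MHCII-hi and 0.78, 0.75 and 0.74 FPKM in MHCII-lo (limma adjusted p = 0.000159); it reached the minimum mean through MHCII-hi alone. Abcg1, another exporter, rose 1.66-fold (limma adjusted p = 0.000109) and Nr1h2, which encodes liver X receptor beta, 1.45-fold (limma adjusted p = 5.65e-05). Soat1, which esterifies cholesterol for storage, fell to 0.701 times the MHCII-lo mean (limma adjusted p = 5.29e-05), and Nceh1, an ester hydrolase, to 0.823 times.

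Fatty acid synthesis genes fell in 6 of 11 tested cases and rose in 2, namely Scd1 and Fads2. Scd1, a stearoyl-CoA desaturase, rose 6.15-fold, with 8.86, 8.95 and 8.43 FPKM in MHCII-hi and 1.57, 1.45 and 1.25 FPKM in MHCII-lo (limma adjusted p = 5.57e-07), while its more abundant paralog Scd2 fell to 0.819 times the MHCII-lo mean. Acaca, acetyl-CoA carboxylase, fell to 0.742 times. Among 15 genes of the non-sterol branches that use the products of Fdps and its neighbours, 9 fell, 2 rose and 4 did not pass, with a median of -0.21. Rabggtb, a subunit of Rab prenyltransferase, fell to 0.589 times, and Nus1, of dolichol synthesis, to 0.609 times. Coq2, of ubiquinone synthesis, fell to 0.648 times, and Fnta, the alpha subunit of protein prenyltransferases other than that of Rab proteins, to 0.649 times. Rabggta and Zmpste24 rose, 1.16-fold and 1.13-fold. Over the 69 tested genes of these 6 lists, 34 fell and 16 rose, beside 40.5% and 27.2% of all tested genes. With median-of-ratios scaling 24 fell and 20 rose, beside 32.5% and 33.3% of all tested genes.

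**Figure D4:**
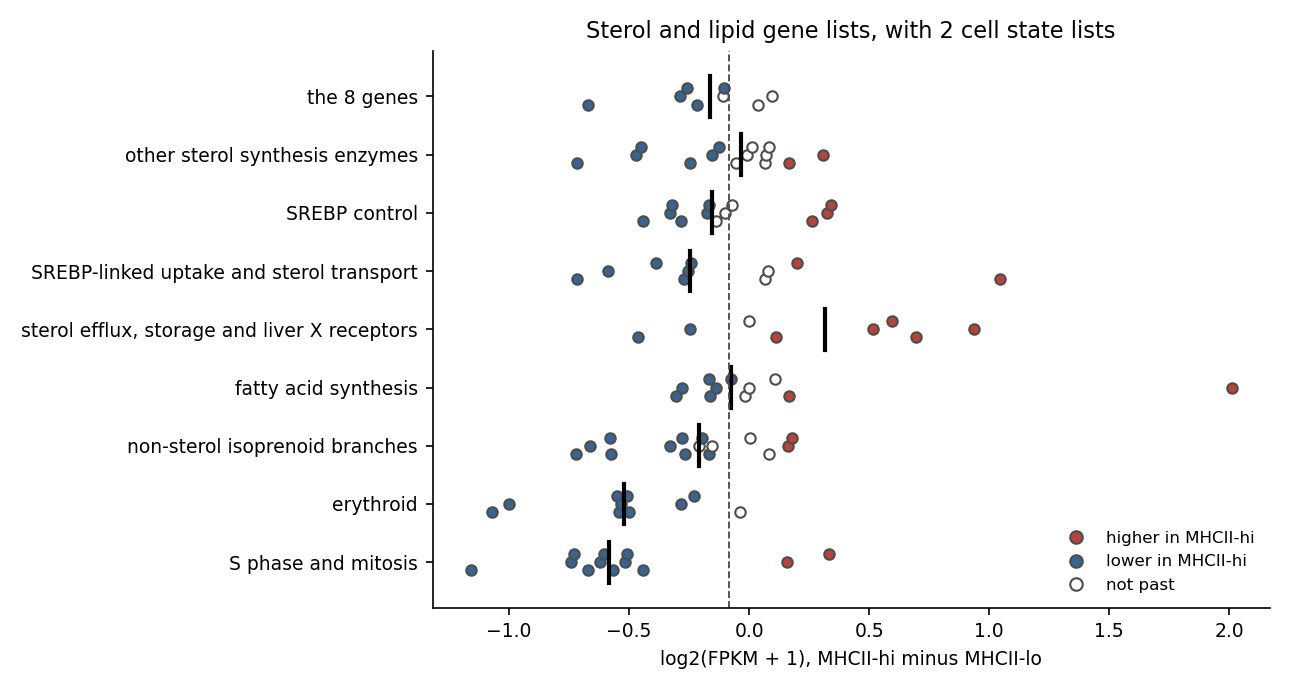
Difference in log2(FPKM + 1), MHCII-hi minus MHCII-lo, of every tested gene in the 8 genes, the 6 sterol and lipid lists and the erythroid and S phase lists (dots; red higher, blue lower, white not past the threshold; vertical offsets only separate dots), with the median of the list as a black bar and that of all tested genes as a dashed line. The medians drawn run from -0.58 for S phase and mitosis to 0.31 for sterol efflux, storage and liver X receptors, with the 8 genes at -0.16; the stem cell gate, B cell and neutrophil and monocyte lists are not drawn.

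Other markers moved with the fractions beside these genes. Of 12 S phase and mitosis genes 10 fell and 2 rose, Mki67 and Ube2c, with sums between 601 and 608 FPKM in MHCII-hi and between 826 and 834 FPKM in MHCII-lo. Dut, a nucleotide-pool enzyme, fell to 0.436 times the MHCII-lo mean. Of 10 erythroid genes 9 fell and none rose, with sums between 494 and 516 FPKM in MHCII-hi and between 680 and 703 FPKM in MHCII-lo, and none of the list was at 0. Both counts stand beside 40.5% falling and 27.2% rising over all tested genes. The part of dividing, erythroid or B lineage cells in the lower levels of Fdps, Sqle, Idi1 and Cyp51 was not tested.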

How the data were processed

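RNA of sorted cells was made into stranded mRNA libraries, per the labels' protocols. The tools were fastp, HISAT2 and StringTie, and GRCm38 and mm10 are the listed builds, per the submitters' processing notes. The treatment of shared reads is not stated. The authors deposited 1 value per gene for each of the 6 libraries, taken as FPKM from their decimals and unequal totals. FPKM is relative, so the shares of immunoglobulin transcripts, at 8.26% to 8.34% of a library in MHCII-hi and 0.392% to 0.458% in MHCII-lo, and of mitochondrial transcripts, at 12.5% in MHCII-hi and 8.81% to 8.96% in MHCII-lo, can lower the other values. No counts or depths are given, so no counting interval was computed.

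For 67 symbols with several rows, the symbol stands for the most abundant row, and the other rows were tested as rows of their own. The 12295 genes whose mean reached 1 FPKM were tested as log2(FPKM + 1) in limma 3.58.1 (R 4.3.3; linear model, mean-variance trend, two-sided, Benjamini-Hochberg over all tested genes). The fit was also run on simulated data with known changes, and the outcome is not reported here. A gene that did not pass may still differ between the fractions. This scale understates changes of low genes; folds and percentages are ratios of mean FPKM. Coordinates, length and GC content came from GENCODE M21 (GRCm38, 96.6% of symbols matched), and near-identical transcripts were searched with blastn at 95% identity over at least 200 bases. Length and GC content are those of the longest annotated transcript of a gene, which may not be the main one in these cells. Tables and figures used Python 3.11.15, pandas 2.3.3, numpy 2.4.6, scipy 1.17.1 and matplotlib 3.10.9.

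The 8 genes, the lists and the tests were chosen with earlier results of these data known. All 8 genes are named, with up to 4 genes of each list by the largest change past the threshold, and examples for cell type lists; Pmvk, Dhcr7, Scap, Lrp8, Soat1, Nceh1, Fads2, Rabggta, Zmpste24, Mki67, Ube2c, Mecom, Idi2 and Ctsb are named after their values were seen. A gene that the rule would name is not reported here. Alternatives were other pseudocounts, filters and scalings, no trend, library weights, the replicate number as a block, removal of the length and GC trend, and each library left out.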

Additional observations from a re-analysis of the deposited data

How the results depend on the processing

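Of 134 values of the 8 genes under alternative settings, 118 kept their direction and side of the threshold. Fdps and Sqle did so in all that tested them, with 17 and 16 settings. Of the 8 genes 5 fell as reported, beside 40.5% of all tested genes. With the length and GC trend removed 2 fell, beside 32.4%. There Idi1 was at -0.0753 and Cyp51 at -0.0868, and Hmgcs1 at 0.0646 and Insig1 at 0.0531 turned positive, all short of the threshold. None of the 8 genes rose in any setting. Insig1 missed the threshold with no filter and with no mean-variance trend (-0.11 in both), quantile normalization (-0.0684), median-of-ratios scaling (-0.0143), rescaling without immunoglobulin and mitochondrial genes (-0.0344), array weights (-0.10) and the replicate block (-0.11, limma adjusted p = 0.0817). With single libraries left out, the differences ranged from -0.16 to -0.0668 for Hmgcs1, -0.13 to -0.0819 for Insig1, -0.30 to -0.20 for Idi1 and -0.24 to -0.18 for Cyp51. In these fits 4 to 5 of the 8 genes fell, beside 36.8% to 39% of all tested genes. The causes of these shifts were not tested.

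Over all tested genes 3348 rose and 4982 fell; with a mean of at least 5 FPKM, which tests 7491 genes, 2210 rose. Median-of-ratios scaling gave 4090 higher and 4001 lower, or 50.5% higher among the calls beside 40.2% as reported. Whether the replicate numbers pair the libraries is not stated. Deviations of same-numbered libraries correlated at 0.063, 0.002 and 0.08, and those of differently numbered libraries at -0.095 to 0.025. With 3 libraries per fraction, such values cannot settle it. The replicate number as a block left 3222 higher and 4809 lower. Of the other named genes, Kit, which did not pass as reported, changed sign at 0.0244 with quantile normalization, 0.0822 with median-of-ratios scaling (limma adjusted p = 0.0466), 0.063 with rescaling and 0.0184 with the length and GC trend removed, and lay between -0.0199 and 0.0025 with libraries left out. Cd34 passed at 0.1282 with quantile normalization, 0.1682 with median-of-ratios scaling, 0.1486 with rescaling and 0.2672 with the length and GC trend removed. The depth is unknown, which limits what can be said of genes near 1 FPKM such as Lss.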
